A study of Mus musculus with 12 samples.

Results

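Transcript levels of 9 genes of the epithelial-mesenchymal transition (EMT) were compared between totipotent potential stem (TPS) cells and extended pluripotent stem (EPS) cells of the mouse. The genes were the transcription factors Snai1, Snai2, Twist1, Zeb1 and Zeb2, the cadherins Cdh1 and Cdh2, the intermediate filament gene Vim and the epithelial surface gene Epcam. They were chosen by name, with earlier results of these data known, and are 9 of the 55401 genes in the count tables. All 9 passed edgeR's filter on low counts, as did 17468 genes in all. Shares called among the 9 are therefore set beside those of all genes as a description. Polyadenylated RNA was sequenced from 3 TPS lines and 3 EPS lines with 2 technical replicates per line, giving 12 libraries. Per the labels, TPS cells grew on feeder cells in VCED medium with a 4C basal medium, and EPS cells grew on feeder cells in LCDM medium. The study's methods give the TPS condition 4 compounds, CD1530 (which activates RARγ), VPA (which blocks histone deacetylases), EPZ004777 (which blocks DOT1L) and a GSK3 inhibitor, and describe the feeders as mitomycin C-inactivated mouse embryonic fibroblasts. Both groups were therefore cocultures with fibroblasts, and no step that removes feeder cells before lysis is given in the sources used here. The strain and sex of the sequenced lines and the origin of the TPS lines (conversion from EPS cells or derivation from embryos) are not given there either. For embryo-derived TPS cells in general, the study's methods name B6-Tg mice. The compounds of LCDM medium are not listed in those methods, so a compound of the TPS condition may also be in the EPS medium. No knockout or transgene defines a group. Nothing in the labels says that the line numbers mark separate derivations, so the p-values measure the spread between these lines.

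In an EMT, epithelial cells give up their junctions and take on a motile, matrix-producing state. SNAIL, SLUG (the product of Snai2), TWIST1, ZEB1 and ZEB2 are DNA-binding proteins that repress E-cadherin (Cdh1) and other junction genes, and the SNAIL and ZEB proteins do so through E-box motifs in promoters. In the early mouse embryo E-cadherin holds blastomeres together at compaction, and mouse pluripotent cells grow as compact, Cdh1-positive colonies. N-cadherin (Cdh2), vimentin (Vim) and most of the 5 factors are also expressed by fibroblasts.

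Library totals lay between 13676051 and 21821707 counts, and line totals between 29877215 and 38466294. Counts of the 2 technical replicates were summed per line, and levels are CPM (read counts scaled to a common library size, after TMM normalization). A gene was called when edgeR's quasi-likelihood test gave a Benjamini-Hochberg adjusted p under 0.05 over all genes tested. As a check of the labels, 6 genes of the 2-cell stage program summed to between 155 and 203 CPM in TPS lines, while each of them had 3 counts or fewer in every EPS library. A sum of 7 pluripotency genes ranged from 3168 to 3651 CPM in TPS lines and from 5569 to 7305 CPM in EPS lines. The collagen and stromal genes that mark fibroblasts separated the groups as well. The 16 fibroblast markers gave sums of 6347, 3506 and 3670 CPM for TPS lines 1, 2 and 3. The sums were 331, 1317 and 1414 CPM for EPS lines 1, 2 and 3, and the ratio of the means was 4.42. Of these 16 markers 9 (56.2%) were called higher and 0 lower in TPS lines, where all genes tested gave 14.4% higher and 7.34% lower. Every TPS line was above every EPS line for 11 of them, and none was at 3 counts or fewer in every EPS library.

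Promoter sequences are shown for members that moved in opposite directions, since E-boxes are the motif through which the SNAIL and ZEB proteins bind DNA. The RefSeq promoter table (build GRCm38.p6) matched 5 of the 9 members, Snai1, Twist1, Zeb2, Vim and Epcam. Each sequence is the 250 bases before the transcription start, read 5′ to 3′ on the gene's strand, with matches to CAGGTG in capitals (CACCTG where the match lies on the opposite strand). They lie at chr2:167537945-167538194 on the plus strand for Snai1, chr12:33957421-33957670 on the plus strand for Twist1 and chr17:87635729-87635978 on the plus strand for Epcam.
Snai1: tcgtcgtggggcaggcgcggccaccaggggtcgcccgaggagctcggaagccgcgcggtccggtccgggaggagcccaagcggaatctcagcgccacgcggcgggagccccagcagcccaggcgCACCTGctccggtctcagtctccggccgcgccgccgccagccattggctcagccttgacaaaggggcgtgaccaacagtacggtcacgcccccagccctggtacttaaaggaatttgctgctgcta
Twist1: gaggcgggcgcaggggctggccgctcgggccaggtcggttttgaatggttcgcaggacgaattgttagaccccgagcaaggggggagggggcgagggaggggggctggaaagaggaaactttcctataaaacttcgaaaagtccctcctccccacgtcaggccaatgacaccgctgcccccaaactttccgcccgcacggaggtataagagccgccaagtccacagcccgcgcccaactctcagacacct
Epcam: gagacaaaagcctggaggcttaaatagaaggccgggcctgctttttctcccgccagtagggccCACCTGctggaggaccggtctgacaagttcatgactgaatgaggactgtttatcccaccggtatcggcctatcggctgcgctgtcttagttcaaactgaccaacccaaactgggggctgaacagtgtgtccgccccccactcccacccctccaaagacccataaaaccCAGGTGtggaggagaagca

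Epcam, which encodes a homophilic adhesion protein of epithelia, held 2 matches, beginning 187 and 19 bases before the start. Snai1 held 1 match, beginning 126 bases before its own start. No match was found in the Twist1 window, in the Vim window or in any of the 4 Zeb2 windows, of which a pair overlap. The Vim window lies within the bounds that GENCODE M21 gives the gene. Of all 32851 promoter windows of this length 17.2% held CAGGTG on either strand, and 66.2% held the broader motif CANNTG, which includes CAGGTG. The CANNTG matches in the members were the same matches as those to CAGGTG. A match is a description of letters, and factor binding was not measured.

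Of the 9 genes 6 were called higher in TPS lines, Snai1, Twist1, Zeb1, Zeb2, Cdh2 and Vim, and 1 was called lower, Epcam. Over all genes tested, 14.4% were called higher and 7.34% lower. The called increases lay between 1.14 (Vim) and 1.80 (Zeb1) on the log2 scale, and the decrease of Epcam was 0.60. Snai2 and Cdh1 did not pass the test. The TPS lines all exceeded the EPS lines for 7 members and all fell short of them for 2 (Cdh1 and Epcam), where all genes tested gave 23.6% above and 19.1% below. The median log2 fold change was 1.51 over the 9 members and -0.0038 over all genes tested. In bulk RNA, fewer cells of a type and less RNA per cell cannot be told apart.

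The fibroblast markers separated the same groups. When the mean log2 level of the 16 markers entered the edgeR fit beside the group, 0 members were called higher and 0 lower at an adjusted p under 0.05 (2 higher and 1 lower at an unadjusted p under 0.05), and 290 of all tested genes were called higher and 59 lower. The log2 fold changes in that fit were 1.46 for Zeb1, 1.41 for Twist1, 0.96 for Snai1, 0.76 for Cdh2, 0.62 for Vim, 0.47 for Zeb2, 0.43 for Snai2, -0.53 for Epcam and -0.90 for Cdh1. Those of Twist1, Zeb1 and Epcam thus stayed near their values without the covariate, those of Snai2 and Zeb2 shrank most, and that of Cdh1 was larger in size. Every TPS line had a higher marker sum than every EPS line, so the part that fibroblast RNA plays cannot be told apart from the group.

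**Figure D1:**
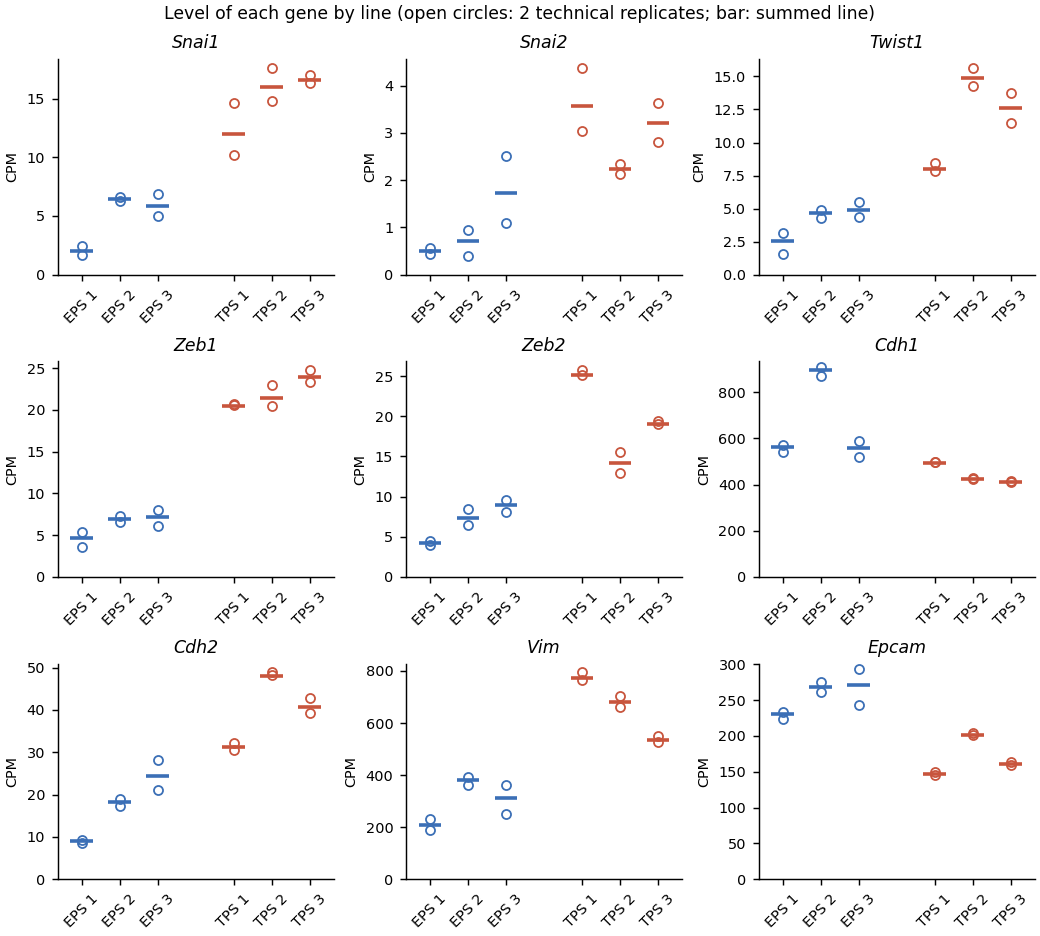
CPM of each of the 9 genes in the 3 EPS lines (blue) and the 3 TPS lines (red), with open circles for the 2 technical replicates and a bar for the summed line. Zeb1 has the widest gap between the groups, and Snai2 is the gene whose single libraries overlap.

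Among the SNAIL factors, Snai1 (ENSMUSG00000042821, chr2:167538195-167542814 on the plus strand of GRCm38, protein-coding) encodes SNAIL, a classical repressor of Cdh1. TPS lines 1, 2 and 3 stood at 12.0, 16.0 and 16.6 CPM, and EPS lines 1, 2 and 3 at 2.02, 6.45 and 5.86 CPM. The groups did not overlap, and the lowest TPS line was 1.86-fold above the highest EPS line. EPS line 1 was lowest by far, and the EPS lines spread 3.18-fold among themselves. Snai1 averaged 14.9 ± 2.48 CPM in TPS lines and 4.78 ± 2.40 CPM in EPS lines (SD, n = 3 lines each). The log2 fold change was 1.63 (SE 0.42, edgeR adjusted p = 0.0321). This call held in 1 of the 6 fits that left out a line, the fit without EPS line 1 (edgeR adjusted p = 0.0288), and the adjusted p reached 0.0906 in the others.

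Snai2 (ENSMUSG00000022676, chr16:14705852-14709385 on the plus strand, protein-coding) encodes SLUG, a factor of neural crest and mesenchyme, and was the member with the lowest CPM. Its line values were 3.57, 2.23 and 3.21 CPM in TPS cells and 0.490, 0.706 and 1.74 CPM in EPS cells. The summed lines did not overlap, but single libraries did: technical replicate 1 of EPS line 3 gave 2.51 CPM and technical replicate 1 of TPS line 2 gave 2.13 CPM. These rest on few counts, with 15, 24 and 61 reads in the EPS lines against 143, 86 and 101 in the TPS lines. Technical replicates of Snai2 differed by up to 2.39-fold, the widest among the members. The log2 fold change of 1.61 (SE 0.52) was close to that of Snai1 and missed the threshold (edgeR adjusted p = 0.0624). A p that misses the threshold does not show equal levels. Snai2 was called higher by DESeq2, by limma-voom and in 4 further alternative fits.

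Twist1 (ENSMUSG00000035799, chr12:33957671-33959829 on the plus strand, protein-coding) encodes a basic helix-loop-helix factor of mesoderm and cranial mesenchyme. It stood at 7.99, 14.9 and 12.6 CPM in TPS lines 1, 2 and 3 and at 2.51, 4.65 and 4.87 CPM in EPS lines 1, 2 and 3. No TPS line reached down to an EPS line, and the nearest pair of lines was 1.64-fold apart. The means were 11.8 ± 3.50 and 4.01 ± 1.30 CPM (SD, n = 3 lines each), with a log2 fold change of 1.56 (SE 0.36, edgeR adjusted p = 0.0217). TPS line 1, which had the highest fibroblast marker sum, had the lowest Twist1 level of the TPS lines. The call was kept in 2 of the 6 fits that left out a line.

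Zeb1 (ENSMUSG00000024238, chr18:5591860-5775467 on the plus strand, protein-coding) encodes a zinc-finger homeobox repressor of Cdh1 and of other epithelial genes. Levels in TPS lines were 20.5, 21.5 and 23.9 CPM, and levels in EPS lines were 4.70, 6.98 and 7.17 CPM. The lines of each group lay close together, and the lowest TPS line was 2.85-fold above the highest EPS line, the widest gap among the 9 genes. Zeb1 averaged 22.0 ± 1.78 CPM in TPS lines and 6.28 ± 1.37 CPM in EPS lines (SD, n = 3 lines each). The log2 fold change was 1.80 (SE 0.23, edgeR adjusted p = 0.00349). Zeb1 was called in 19 of 20 alternative fits, including each of the 6 that left out a line and the one with a threshold of 0.01. The exception was the fit with the fibroblast markers as a covariate, where the log2 fold change was 1.46 (edgeR adjusted p = 0.0765).

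Zeb2 (ENSMUSG00000026872, chr2:44983632-45117395 on the minus strand, protein-coding) encodes the related repressor SIP1. Its TPS lines stood at 25.2, 14.2 and 19.1 CPM and its EPS lines at 4.18, 7.36 and 8.94 CPM. TPS line 1 was highest here, the reverse of its place for Twist1, and the groups did not overlap. The means were 19.5 ± 5.49 and 6.82 ± 2.42 CPM (SD, n = 3 lines each), and the log2 fold change was 1.51 (SE 0.34, edgeR adjusted p = 0.0199). The call was lost without TPS line 1, TPS line 3 or EPS line 2 (edgeR adjusted p between 0.0558 and 0.0606). Without TPS line 1 and EPS line 1 together, the lines with the highest and the lowest fibroblast marker sums, it was 1.02 (edgeR adjusted p = 0.0794). Across those 4 lines the other factors gave 1.39 for Snai1 (adjusted p = 0.0334), 1.51 for Twist1 (0.0344), 1.67 for Zeb1 (0.0217) and 1.13 for Snai2 (0.253) in edgeR. Antisense transcripts overlap both ZEB genes, and whether strand was used in counting is not stated. Zeb2os shares 653 exon bases with Zeb2 and had 16 counts in all libraries together against 2850 for Zeb2, and Gm10125 shares 198 exon bases with Zeb1 and had 15 against 3034.

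Cdh1 (ENSMUSG00000000303, chr8:106603351-106670246 on the plus strand, protein-coding), the E-cadherin gene and the classical target of these factors, was among the most abundant transcripts of both groups. It stood at 492, 422 and 411 CPM in TPS lines 1, 2 and 3 and at 562, 895 and 559 CPM in EPS lines 1, 2 and 3. All TPS lines lay below all EPS lines, yet the nearest lines were only 1.14-fold apart, and EPS line 2 stood well above the other EPS lines. The means were 442 ± 43.7 CPM and 672 ± 193 CPM (SD, n = 3 lines each). The log2 fold change of -0.61 (SE 0.21) was not called (edgeR adjusted p = 0.0748), and without EPS line 2 it was -0.36. Cdh1 passed the threshold in 2 of 20 alternative fits, with no filter on low counts (edgeR adjusted p = 0.0215) and with the 12 libraries as separate samples (edgeR adjusted p = 0.00475). Counted per kilobase of exon, its level lay at percentile 97.1 of tested genes in TPS lines and 97.7 in EPS lines.

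Epcam (ENSMUSG00000045394, chr17:87635979-87651129 on the plus strand, protein-coding) was the other epithelial member. Levels of 147, 201 and 161 CPM in TPS lines lay below levels of 231, 269 and 271 CPM in EPS lines. The lowest EPS line was 1.15-fold above the highest TPS line, and EPS line 1, with the lowest fibroblast marker sum, was also the lowest EPS line for Epcam. The means were 170 ± 28.4 and 257 ± 22.6 CPM (SD, n = 3 lines each), and the log2 fold change was -0.60 (SE 0.16, edgeR adjusted p = 0.0326). The call was lost in 4 of the 6 fits that left out a line and when counts were scaled to library size alone (edgeR adjusted p = 0.0964).

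Cdh2 (ENSMUSG00000024304, chr18:16588877-16809246 on the minus strand, protein-coding) encodes N-cadherin, the cadherin of neural and mesenchymal cells. It stood at 31.2, 48.1 and 40.7 CPM in TPS lines and at 8.94, 18.4 and 24.4 CPM in EPS lines. The groups were separate, with a 1.28-fold gap between TPS line 1 and EPS line 3. The means were 40.0 ± 8.49 and 17.2 ± 7.80 CPM (SD, n = 3 lines each), with a log2 fold change of 1.21 (SE 0.35, edgeR adjusted p = 0.0460). This call lay nearest the threshold and was kept in 1 of the 6 fits that left out a line, the fit without EPS line 3 (edgeR adjusted p = 0.0361).

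Vim (ENSMUSG00000026728, chr2:13573927-13582826 on the plus strand, protein-coding) encodes vimentin, abundant in fibroblasts and in cultured cells of many kinds. TPS lines 1, 2 and 3 gave 772, 679 and 536 CPM, and EPS lines 1, 2 and 3 gave 208, 381 and 314 CPM. The lowest TPS line was 1.41-fold above the highest EPS line. Vim averaged 662 ± 119 CPM in TPS lines and 301 ± 87.2 CPM in EPS lines (SD, n = 3 lines each), a log2 fold change of 1.14 (SE 0.24, edgeR adjusted p = 0.0165). It was called in 5 of the 6 fits that left out a line, and without TPS line 1 the edgeR adjusted p was 0.0505.

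**Figure D2:**
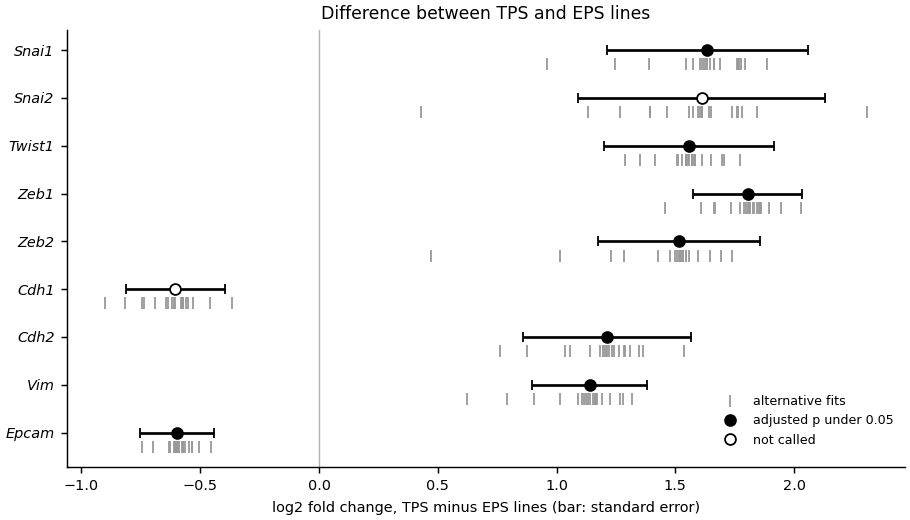
Log2 fold change (TPS minus EPS lines) of each gene from edgeR, with the standard error as a bar, filled points for an adjusted p under 0.05 and grey ticks for the 20 alternative fits. No tick crosses 0; Cdh1 and Epcam lie to its left and the other 7 genes to its right.

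Levels of different genes were compared per kilobase of exon. In EPS lines the order was Cdh1 (147 CPM per kilobase), Epcam (117), Vim (63.4), Snai1 (2.95), Twist1 (2.46), Cdh2 (2.14), Zeb1 (0.612), Snai2 (0.484) and Zeb2 (0.342). The order in TPS lines was Vim (140), Cdh1 (96.6), Epcam (77.3), Snai1 (9.17), Twist1 (7.26), Cdh2 (4.96), Zeb1 (2.14), Snai2 (1.49) and Zeb2 (0.978). Vim thus stood first in TPS lines and behind both epithelial genes in EPS lines, while the other 8 kept their order. With the longest transcript as the length, Cdh2 (8.26 in TPS lines and 3.56 in EPS lines) passed Twist1, and in EPS lines also Snai1, and Zeb2 (2.14 and 0.748) passed Snai2, while the first 3 places were the same. Line ranges overlapped between Cdh1 and Epcam, among Snai1, Twist1 and Cdh2 as neighbours, and between Snai2 and Zeb2 in both groups, and between Zeb1 and Snai2 in EPS lines alone. The 5 factors summed to 17.3, 22.9 and 22.8 CPM per kilobase in the TPS cells and to 3.70, 8.23 and 8.61 in EPS lines. These sums stayed well below the level of Cdh1 in every line.

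The balance of E-cadherin to N-cadherin transcript was taken as the log2 ratio of their levels per kilobase. It was 4.80, 3.95 and 4.15 in TPS lines 1, 2 and 3 and 6.79, 6.43 and 5.34 in EPS lines 1, 2 and 3. Cdh1 exceeded Cdh2 by 15.5- to 27.8-fold in TPS lines and by 40.4- to 111-fold in EPS lines. With the longest transcript as the length these folds were 9.60 to 17.2 and 25.0 to 68.6, and the difference between the groups was the same. The means were 4.30 ± 0.44 and 6.18 ± 0.76 (SD, n = 3 lines each), a difference of -1.88 (two-sided exact permutation p = 0.1, the smallest that 3 against 3 lines allow). The ratio of Vim to Cdh1 per kilobase was 1.51, 1.55 and 1.26 in TPS lines and 0.357, 0.410 and 0.541 in EPS lines, or 1.97 to 2.43 and 0.560 to 0.850 with the longest transcript. By either length Cdh1 exceeded Cdh2 in all 6 lines, and Vim exceeded Cdh1 per kilobase in the 3 TPS lines alone.

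**Figure D3:**
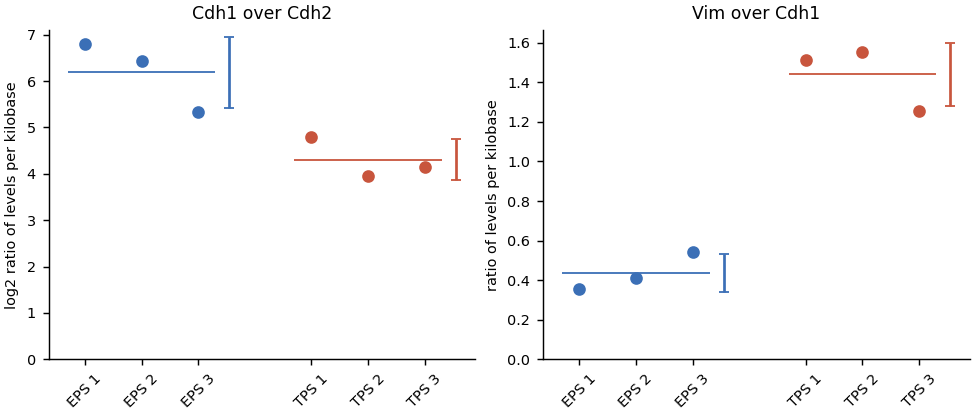
Log2 ratio of Cdh1 to Cdh2 (left) and ratio of Vim to Cdh1 (right), both of levels per kilobase, in each line, with the group mean as a line and the SD as a bar. TPS lines lie at 3.95 to 4.80 on the left axis against 5.34 to 6.79 for EPS lines.

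The fibroblast marker sum gave a measure against which the line-to-line order of the 9 genes could be set. Within the EPS group the sum was 4.27-fold higher in line 3 than in line 1, beside 3.55-fold for Snai2, 2.90-fold for Snai1, 2.73-fold for Cdh2, 2.14-fold for Zeb2, 1.94-fold for Twist1, 1.53-fold for Zeb1 and 1.51-fold for Vim, whereas Cdh1 stood at 0.996 of its level in line 1. All 5 factors, Cdh2, Vim and Epcam were lowest in the EPS line with the least fibroblast marker RNA. Within TPS lines the picture was mixed. TPS line 1 had 1.81 times the marker sum of TPS line 2 (2.76 times over the 14 markers other than Col1a1 and Col1a2, with all 16 markers higher), and it had 1.77 times its Zeb2, 1.60 times its Snai2 and 1.14 times its Vim, but 0.538 times its Twist1, 0.648 times its Cdh2, 0.752 times its Snai1 and 0.953 times its Zeb1. Between the groups, TPS line 2 exceeded EPS line 3 by 2.48-fold in marker sum, most of it Col1a1 and Col1a2. Over the other 14 markers the ratio was 1.34, and 5 of the 16 markers were lower in TPS line 2 (Dcn, Lum, Postn, Dpt and Col6a3). The same pair of lines differed by 3.06-fold in Twist1, 2.99-fold in Zeb1, 2.73-fold in Snai1, 2.16-fold in Vim, 1.97-fold in Cdh2, 1.59-fold in Zeb2 and 1.28-fold in Snai2. Markers of other lineages were lower in level. The summed markers of primitive endoderm ran from 43.0 to 62.9 CPM in TPS lines and from 15.9 to 22.1 CPM in EPS lines, with 3 of 6 called higher. Those of trophectoderm gave 123 to 183 CPM against 84.2 to 145 CPM, with 2 of 5 tested called higher by edgeR, 4 by DESeq2 and 1 by limma-voom, those of neural cells 33.3 to 71.0 CPM against 20.3 to 32.0 CPM, with 1 of 6 tested (16.7%, near the 14.4% of all genes) called higher by edgeR, 2 by DESeq2 and 0 by limma-voom, and those of primitive streak and mesoderm 11.2 to 47.4 CPM against 19.0 to 27.2 CPM, with 0 of 4 tested called either way by edgeR (2 higher by DESeq2, 0 by limma-voom and 1 at an unadjusted p). Tfap2c, which was not called, gave 128 of the mean trophectoderm sum of 152 CPM in TPS lines and 112 of 119 CPM in EPS lines. The trophectoderm genes called by edgeR were Cdx2 (4.57 against 0.239 CPM) and Gata3 (2.09 against 0.173 CPM). The part of these other lineages in the values of the 9 genes was not tested.

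**Figure D4:**
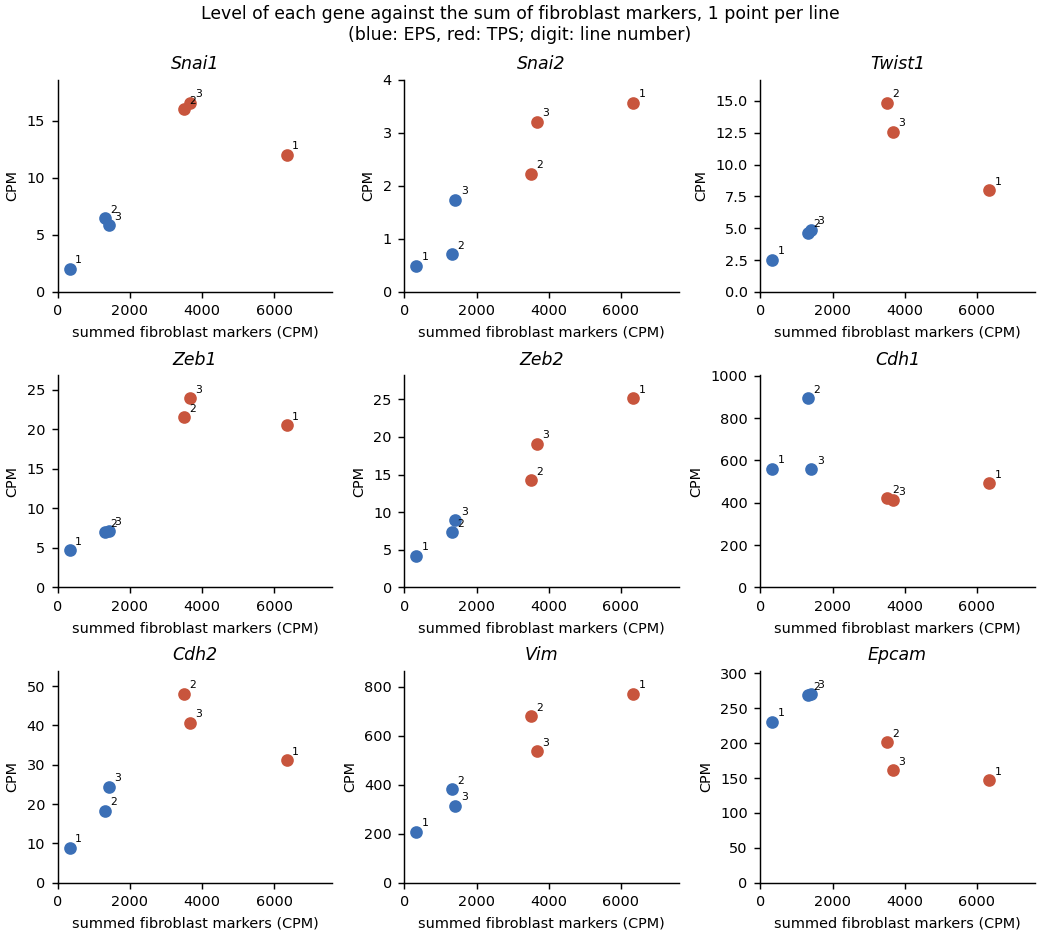
CPM of each gene against the summed CPM of 16 fibroblast markers, 1 point per line (EPS blue, TPS red, with the line number). The marker sum runs from 331 to 1414 in EPS lines and from 3506 to 6347 in TPS lines, so the groups do not overlap on this axis.

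Further genes of the pathway were taken as lists, also chosen with earlier results of these data known, so their shares are a description. Of 10 further EMT transcription factors 5 rose and 0 fell in TPS lines by edgeR (median log2 fold change 0.96 over the list). These were 50% higher and 0% lower, beside 14.4% and 7.34% of all genes tested. DESeq2 called 5 higher and 1 lower, and limma-voom called 3 higher and 1 lower. Twist2, a relative of Twist1, rose by 3.03 (11.9 ± 7.98 against 1.45 ± 0.89 CPM, edgeR adjusted p = 0.0281). Foxc1, a forkhead factor of mesenchyme, rose by 2.41 (adjusted p = 0.0321), and Prrx1, a homeobox factor of limb and facial mesenchyme, rose by 1.92 (adjusted p = 0.0403) in the same fit. The call of Twist2 was lost in 11 of 20 alternative fits, limma-voom among them (adjusted p = 0.0592), that of Prrx1 in 10 of 20 and that of Foxc1 in 8 of the 19 in which it was tested. Foxc2 and Foxq1 were the other called members of this list, each with a mean under 1 CPM over the 6 lines. The 5 factors not called were Gsc (-1.15), Klf8 (-0.93, unadjusted p = 0.0153 in edgeR), Snai3 (-0.50), Tcf3 (-0.24) and Tcf4 (-0.01), and Gsc and Klf8 had every TPS line below every EPS line. None of the 8 tested epithelial transcription and splicing regulators was called in either direction (0 higher and 0 lower by edgeR, DESeq2 or limma-voom, 0 higher and 1 lower at an unadjusted p under 0.05 in edgeR, median -0.40). Their log2 fold changes included -0.43 for Esrp1, a splicing regulator of epithelia, -0.66 for Ovol2, a repressor of Zeb1, and 0.59 for Grhl2, an activator of epithelial junction genes.

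Of 17 other cadherin genes 11 were tested, and 6 rose while 0 fell (median 1.84), with 0 lower also by DESeq2, by limma-voom and at an unadjusted p under 0.05 in edgeR. Cdh3, which encodes P-cadherin, rose by 1.36 from 18.9 ± 3.16 to 48.5 ± 8.38 CPM (edgeR adjusted p = 0.00512). Cdh11, the mesenchymal OB-cadherin, rose by 2.28 from 12.1 ± 8.85 to 58.8 ± 18.8 CPM (edgeR adjusted p = 0.0364), a call lost in 7 of 20 alternative fits. Cdh6, Cdh15, Cdh18 and Cdh20 were the remaining called cadherins, all with a mean under 1 CPM over the 6 lines. Of 11 catenins and adherens junction partners 2 rose and 1 fell (median 0.07), which is 18.2% and 9.09% beside 14.4% and 7.34% of all genes tested. Jup, which encodes plakoglobin, the catenin of desmosomes and adherens junctions, fell from 241 ± 30.3 to 96.9 ± 11.4 CPM (log2 fold change -1.32, edgeR adjusted p = 0.00260). Vcl, the vinculin gene, rose by 0.72 (edgeR adjusted p = 0.0178), and the low-level gene Ctnna2 was called higher. Ctnnb1, the β-catenin gene, had a log2 fold change of 0.16 and was not called.

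Of 27 tight junction, desmosome and epithelial surface genes 9 fell and 1 rose in TPS lines by edgeR (median -0.34). These were 33.3% lower and 3.7% higher, beside 7.34% lower and 14.4% higher over all genes tested. DESeq2 called 10 lower and 2 higher, and limma-voom called 10 lower and 1 higher. Cldn4 and Cldn7, claudins of tight junctions, had log2 fold changes of -2.16 and -2.13 (edgeR adjusted p = 0.00941 and 0.0133). Cldn4 went from 362 ± 96.0 CPM in EPS lines to 81.2 ± 44.0 CPM in TPS lines. Tjp3, a scaffold protein of tight junctions, fell by 2.12 (edgeR adjusted p = 0.00635), and its relative Tjp1 was the 1 gene called higher, by 0.54 (edgeR adjusted p = 0.0451), a call that was lost in 13 of 20 alternative fits, DESeq2 among them (adjusted p = 0.0580). Marveld3, Crb3, Spint1, Spint2, St14 and Rab25 made up the other decreases, between -0.92 and -1.95. The keratin genes Krt8 and Krt18 had log2 fold changes of 2.77 and 3.52 and were not called (edgeR adjusted p = 0.124 and 0.0550). Their SDs exceeded their means in TPS lines (93.6 ± 130 CPM for Krt8 and 77.7 ± 104 CPM for Krt18). In EPS lines the values were 13.7 ± 5.21 and 6.78 ± 3.28 CPM. The other claudins of the list, Cldn3 (-0.15) and Cldn6 (-0.56), were not called, as were 17 of the 27 genes in all.

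Of 16 mesenchymal matrix, adhesion and cytoskeleton genes 14 were tested, 8 rose and 0 fell (median 1.56), and the count of 0 was the same with DESeq2, limma-voom and an unadjusted p. The share that rose was 57.1%, beside 14.4% of all genes tested and 56.2% of the fibroblast markers, whose sum was 4.42-fold higher in TPS lines. With the fibroblast markers as a covariate 1 of the 14 was called higher, Itga5 (1.82, edgeR adjusted p = 0.0293). Acta2, smooth muscle actin, rose by 4.80 with wide spread between TPS lines (177 ± 149 against 6.31 ± 4.68 CPM, edgeR adjusted p = 0.00775). Cd44, the hyaluronan receptor, rose by 2.21 (edgeR adjusted p = 0.0130). Itga5, Itgav, Itgb1, Mmp2 and Mmp14 were also called higher. Fn1, the fibronectin gene, had a log2 fold change of 0.05 and was not called. Of 12 TGF-beta pathway genes 4 rose and 0 fell (median 0.41), again with 0 lower by the other tools and at an unadjusted p. DESeq2 called 4 of them higher and limma-voom 2, and Tgfb2 was among those not called by limma-voom (adjusted p = 0.0959). The ligands Tgfb2 and Tgfb3 rose by 3.78 and 2.82. The receptor Tgfbr2 rose by 2.00 and the co-receptor Tgfbr3 by 1.78 (edgeR adjusted p between 0.00831 and 0.0310 for these 4 genes). The SD of Tgfb2 exceeded its mean in TPS lines (12.0 ± 14.8 against 0.866 ± 0.393 CPM in EPS lines). The ligand Tgfb1 (0.16) and the signal transducers Smad2 (0.10), Smad3 (0.55) and Smad4 (0.03) were not called.

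Genes that act with or on the factors were taken as the last 2 lists. Of 11 co-repressors 0 rose, by DESeq2, limma-voom or an unadjusted p either, and 1 fell (median -0.14), which is 9.09% beside 7.34% of all genes tested. The decrease was that of Ezh2, the methyltransferase of the Polycomb complex, with a log2 fold change of -0.51 (edgeR adjusted p = 0.0253), and this call was lost in 10 of 20 alternative fits. Of 10 genes of SNAIL protein stability 1 rose and 1 fell (median 0.02), 10% in each direction, near the share over all genes tested. Lats2, a kinase that phosphorylates SNAIL, rose by 1.92 (edgeR adjusted p = 0.0214, a call lost in 6 of 20 alternative fits) and Csnk1a1, the casein kinase 1 alpha gene, fell by 0.61 (edgeR adjusted p = 0.0302), a call lost in 9 of 20 alternative fits. Gsk3b, whose kinase marks SNAIL for degradation, had a log2 fold change of 0.02 and was not called, and SNAIL protein was not measured. Of the other called genes given with values here, Tgfb2 and Tgfbr2 lost their calls in 7 of 20 alternative fits, Vcl in 5, Cldn7 and Cd44 in 3, Cldn4 and Tjp3 in 2, and Cdh3, Jup, Acta2 and Tgfb3 in 1. With the fibroblast markers as a covariate, Itga5 and Cdh20 were the called genes among the 9 pathway lists.

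**Figure D5:**
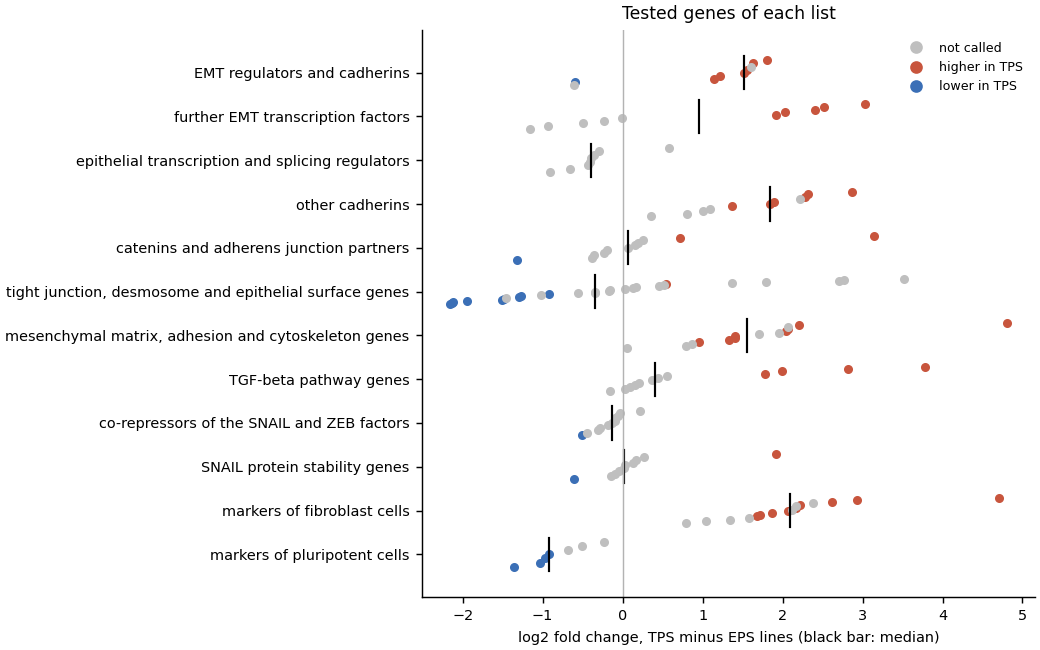
Log2 fold change (TPS minus EPS lines) of each tested gene of each list, red for called higher, blue for called lower, grey for not called, with the list's median as a black bar. The medians of fibroblast markers (2.10), other cadherins (1.84), mesenchymal genes (1.56), the 9 genes described here (1.51) and further EMT factors (0.96) lie to the right of 0, as do those of TGF-beta genes (0.41), catenins (0.07) and SNAIL stability genes (0.02), and those of co-repressors (-0.14), tight junction genes (-0.34), epithelial regulators (-0.40) and pluripotency markers (-0.92) lie to the left.

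Profiles over the 12 libraries were compared on log2(CPM + 1), as a description across libraries that come from 6 lines and share their group difference. The genes most like Cdh1 were Dnajc6, Hsd17b12 and Atp6ap2, with Pearson r of 0.979, 0.976 and 0.971, and 124 tested genes exceeded an r of 0.9 with it. The genes most like Snai1 were Fzd2, Phldb1 and Igfbp3, with r of 0.980, 0.977 and 0.973, and 373 tested genes exceeded an r of 0.9. All 3 genes most like Snai1 were called higher in TPS lines, whereas the 3 most like Cdh1, as Cdh1 itself, were below EPS lines in every TPS line and not called.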

How the data were processed

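Polyadenylated RNA of 3 TPS and 3 EPS lines was sequenced as 12 libraries. The authors mapped paired-end reads to GRCm38.p6 with STAR 2.7.3a, trimming with fastp 0.19.7 per the submitters' processing notes, and deposited unnormalized read counts per gene. The counting tool, annotation release, use of strand and treatment of multi-mapping reads are not given in the sources used here. Gene identifiers were matched without version to GENCODE M21 (55141 of 55401). A blastn search found no near-identical transcript (95% identity over 10% or more of its length) of another gene for any of the 9 genes. Groups and line numbers came from the labels, and counts of the 2 technical replicates were summed per line. Errors are the spread between lines.

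Lines were compared with edgeR 4.0.16 in R 4.3.3 (quasi-likelihood test, TMM, filterByExpr with a minimum of 10 counts and 15 in total), and p-values were Benjamini-Hochberg adjusted over 17468 genes with a threshold of 0.05. The standard error was the fold change divided by the square root of F. The script was tested on simulated data. Alternatives were DESeq2 1.42.0, limma-voom (limma 3.58.1), other scalings, filters and thresholds, single technical replicates, 12 separate libraries, a block for line number and leaving out each line. A fit without TPS line 1 and EPS line 1 and a fit with the fibroblast markers as a covariate were added after seeing the data. Named genes were all 9 members, up to 3 called genes per list and direction with the largest change and a mean of at least 1 CPM, genes overlapping a member, and the 3 genes most correlated with Cdh1 and with Snai1. Other genes named from the lists were picked after their values were seen. The members and lists were chosen with earlier results of these data known. The values of 1 gene that the rule names are not reported here.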

Additional observations from a re-analysis of the deposited data

Results flagged for a closer look

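Among 18 groups of 6 libraries (9 genes in TPS and in EPS cells), the lowest TPS library for Snai1 stood apart from the others. Technical replicate 2 of TPS line 1 gave 10.2 CPM, and the next lowest TPS library gave 14.7 CPM, with a gap of 0.662 of the group's range on log2(CPM + 1), which is above Dixon's 95% critical value. The library still lay above every EPS library. Chance flags about 1 in 20 such groups, and the libraries of a line are not independent.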

How the results depend on the processing

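All 9 genes kept the direction of their difference in each of the 20 alternatives. The number of the 9 called higher was 7 with DESeq2, limma-voom, no filter, the 12 libraries as separate samples or technical replicate 2 alone, and 5 with technical replicate 1 alone. The number called lower was 0 with library size alone or technical replicate 1 alone, and 2 with no filter or 12 libraries. A threshold of 0.01 left 1 higher (Zeb1) and 0 lower, with 873 and 258 of all genes. Leaving out TPS line 1 and EPS line 1 together gave 4 and 0, with 1209 and 422 of all genes, and the fibroblast covariate gave 0 and 0, with 290 and 59. Leaving out each line in turn gave 2 to 6 higher and 0 to 1 lower, with 1617 to 2234 and 493 to 1047 of all genes. The fewest, 2 higher, came without TPS line 1, TPS line 3 or EPS line 2. Each fit without a line held fewer lines than the main fit, and the one without EPS line 3 still called 6 higher. Over all genes, edgeR on the 6 lines called 2509 higher and 1282 lower, DESeq2 3439 and 1658, limma-voom 2429 and 1245, no filter 3290 and 1535, technical replicate 1 alone 2000 and 1029, technical replicate 2 alone 2074 and 1063, 12 libraries 4067 and 3610, and library size alone 2987 and 745, the last with a median log2 fold change of 0.144, so that calls that were higher went from 66.2% to 80% of calls (53% with 12 libraries). The Cdh1 to Cdh2 difference ranged from -2.31 to -1.58 without a line. Deviations from the group mean had r of 0.0240, -0.116 and 0.0423 between same-numbered lines. Between lines of different number r ran from -0.244 to 0.231. With 3 lines per group these values show no sign of pairing by number but cannot exclude it. With the line number as a replicate block 1714 genes were higher and 721 lower. Of the 9 genes, 5 were then higher (Zeb2 was lost, edgeR adjusted p = 0.0551) and 1 lower. The two-sided sign-flip p of the Cdh1 to Cdh2 ratio was 0.25, the smallest that 3 pairs of lines allow. Snai2 had the fewest reads of the 9 genes in every line, with 15 in EPS line 1. The cause of these changes was not tested.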
